A study of Mus musculus with 9 samples.

Results

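The 10 genes described here encode enzymes that make or degrade eicosanoids, the signalling lipids derived from arachidonic acid, and a prostaglandin receptor. They are the cyclooxygenases Ptgs1 and Ptgs2, the prostanoid synthases Ptgis, Ptges and Tbxas1, the prostaglandin E2 receptor Ptger4, the lipoxygenase Alox12, the lipoxygenase-activating protein gene Alox5ap, and the epoxide hydrolases Ephx1 and Ephx2. They were taken by symbol from a count table of 18094 mouse genes, in which all 10 were found, and 9 passed the filter on low counts. Ptges did not pass it and is described by its counts.

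The RNA came from cardiac cells that were bound to magnetic beads for endothelium and taken from mice of 2 inbred lines, for which the labels give strain and age alone. Hypertensive BPH/2J mice were sampled when 4 weeks old or 22 weeks old, and normotensive BPN/3J mice when 22 weeks old, with 3 libraries in each of the 3 groups. High and normal blood pressure are thus each modelled by 1 line, and no 4-week BPN/3J group is among the samples. A difference between the lines therefore cannot be told apart from blood pressure, and 4-week BPH/2J and 22-week BPN/3J differ in line and age together. Between 4 and 22 weeks in BPH/2J, a change with age in general cannot be told apart from one particular to this line or its blood pressure. The labels do not say whether a library came from 1 animal or from a pool, so the spread on which the p-values rest is one between libraries and may be technical. Depth was similar in all libraries, at 28806840 to 32913813 counts, and 3 counts corresponded to 0.0911 to 0.104 CPM, the count scaled to an equal library total.

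All 10 endothelial markers were measured, and their summed level was 10383 to 10786 CPM in BPN/3J, 12300 to 12915 CPM in 4-week BPH/2J and 13284 to 13333 CPM in 22-week BPH/2J. The libraries also held transcripts of other heart cells, read from markers of 10 other cell classes. No measured gene had fewer than 10 counts in total, so no measured marker could be at 0 in all 9 libraries. Ly6g, Elane and Camp of the neutrophil list and Msln and Upk3b of the mesothelial list were not among the genes measured. Within each group, 1 library stood apart by a marker sum. BPN/3J replicate 1 had the highest macrophage and monocyte marker sum of its group, 4-week BPH/2J replicate 1 the highest platelet marker sum, and 22-week BPH/2J replicate 2 the lowest endocardial marker sum. Over all tested genes BPN/3J replicate 1 did not stand apart, as every pair of its group correlated at 0.991 to 0.992 in log2 CPM. By contrast, 4-week BPH/2J replicate 1 did stand apart. It correlated at 0.987 with replicates 2 and 3 of its group, which correlated at 0.994 with each other. In 22-week BPH/2J, replicate 2 correlated at 0.992 and 0.991 with replicates 1 and 3, which correlated at 0.993. The values below are given with these libraries, and without them where that ends a call, creates one or moves a value by more than 1.5 times. In these bulk samples, fewer cells of a type and less RNA per cell cannot be told apart.

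Cyclooxygenases convert arachidonic acid freed from membranes into prostaglandin H2, which terminal synthases then turn into prostacyclin, thromboxane or prostaglandin E2. Endothelium is known as a main source of prostacyclin, which relaxes vessels and restrains platelets, whereas thromboxane constricts vessels and activates platelets. Lipoxygenases lead to hydroxy fatty acids and leukotrienes, and cytochrome P450 enzymes make epoxides of arachidonic acid that dilate vessels and that epoxide hydrolases inactivate.

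The promoters of Ephx1, Ptger4 and Alox12 are shown because these genes gave the largest called differences in the comparison of ages, of BPH/2J at 4 weeks with BPN/3J, and of the lines at 22 weeks. Each sequence runs from 250 bases before to 50 bases after the annotated start of the gene and comes from RefSeq on build GRCm38.p6, in the reference strain and not in either line studied. It is written 5′ to 3′ on the strand of the gene, with matches to the words searched in capitals. The 3 windows are chr1:181017520-181017819, chr15:5244138-5244437 and chr11:70255321-70255620, all on the minus strand.
Ephx1: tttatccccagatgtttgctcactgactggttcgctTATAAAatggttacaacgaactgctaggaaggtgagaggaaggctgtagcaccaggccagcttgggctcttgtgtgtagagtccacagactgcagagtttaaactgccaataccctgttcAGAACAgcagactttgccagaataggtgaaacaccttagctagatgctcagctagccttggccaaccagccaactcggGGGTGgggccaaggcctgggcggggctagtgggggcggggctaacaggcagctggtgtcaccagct
Ptger4: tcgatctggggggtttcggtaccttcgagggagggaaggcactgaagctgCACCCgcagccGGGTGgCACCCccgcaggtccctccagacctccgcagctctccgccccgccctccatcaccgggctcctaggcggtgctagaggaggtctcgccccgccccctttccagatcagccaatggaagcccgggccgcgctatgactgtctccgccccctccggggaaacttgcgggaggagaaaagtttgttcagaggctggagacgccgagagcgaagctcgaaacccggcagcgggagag
Alox12: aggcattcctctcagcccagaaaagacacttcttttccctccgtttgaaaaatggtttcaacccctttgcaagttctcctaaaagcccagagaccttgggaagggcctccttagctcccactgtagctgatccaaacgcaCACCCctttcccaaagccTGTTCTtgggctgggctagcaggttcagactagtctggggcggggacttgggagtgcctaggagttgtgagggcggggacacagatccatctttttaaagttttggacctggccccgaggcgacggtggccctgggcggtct

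Promoters were matched for 7 of the 10 genes, all except Ptgis, Alox5ap and Ephx2. The word CACCC, the core of Kruppel-like factor sites, was found on either strand in 5 of the 7 promoters, against 57.5% of all 32851 promoters. All 3 promoters shown hold it, where its reverse complement reads GGGTG. One arm of the glucocorticoid receptor site, AGAACA, was found in 4 of 7, against 19% of all promoters, and Ephx1 and Alox12 hold it, in Alox12 on the other strand, where it reads TGTTCT. The TATA box word, TATAAA, was found in Ephx1 and Tbxas1, against 13.6% of all promoters, and in Ephx1 it lies at position -214 relative to the start. GCGTG, the core of the aryl hydrocarbon receptor site, was found in Ptgs2 and Ptges, against 32.4% of all. The cyclic AMP response element, TGACGTCA, was not found in these 7 windows and is present in 1.79% of all promoters. These matches are descriptions of letters in the windows.

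Expression was compared in 3 ways, each of which shares libraries with the other comparisons, so their values are set side by side and not correlated. A gene is called higher or lower where its Benjamini-Hochberg adjusted p in the quasi-likelihood test of edgeR, over 15277 tested genes, was below 0.05. Between the lines at 22 weeks, 1 of the 9 tested genes was higher in BPH/2J and 3 were lower, against 19.8% higher, 18.2% lower and 38.0% in either direction among all tested genes. The median log2 difference of the 9 genes was -0.51, against 0.02 over all genes. From 4 to 22 weeks within BPH/2J, 6 of the 9 rose and 2 fell, against 19.9% higher, 21.1% lower and 41.0% in either direction among all genes, with a median of 0.89 against 0.01. In 4-week BPH/2J against 22-week BPN/3J, 1 was higher and 5 were lower, against 27.8% higher, 25.3% lower and 53.1% in either direction, with a median of -0.79 against 0.00. The count of 4 called genes between the lines is thus near the background share, and the share called between the ages was above it. The genes were chosen with earlier results of these data known, so these shares only describe them.

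**Figure D1:**
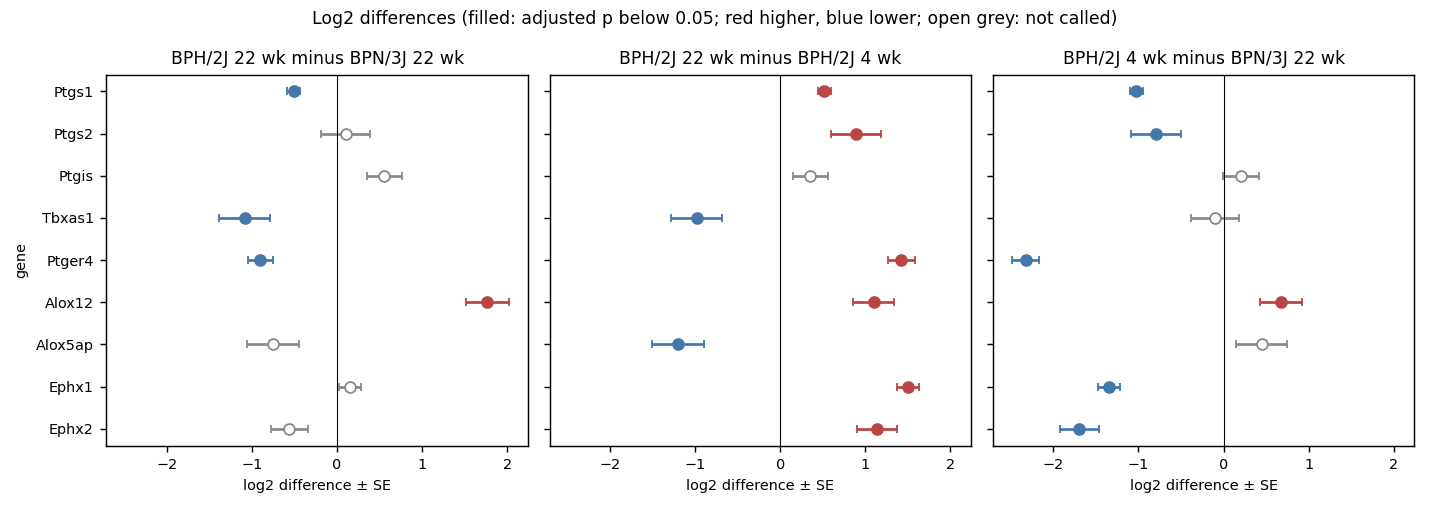
Log2 difference of each of the 9 tested genes with its SE, in the 3 comparisons (x axis, log2 scale). Filled points passed an adjusted p of 0.05, red for higher and blue for lower in the first-named group. Alox12 is the gene called higher in 22-week BPH/2J against BPN/3J, at 1.77, and Ptger4 is lowest in 4-week BPH/2J against BPN/3J, at -2.33.

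Ptgs1 (ENSMUSG00000047250, chromosome 2) encodes the cyclooxygenase that most cells make constitutively. It stood at 99.5, 105.9 and 108.7 CPM in the BPN/3J libraries, at 52.2, 54.2 and 47.9 CPM in 4-week BPH/2J and at 75.5, 66.4 and 78.9 CPM in 22-week BPH/2J (library sizes adjusted by the trimmed mean of M values, TMM, as for all CPM values here). The 3 groups did not overlap, with BPN/3J highest and 4-week BPH/2J lowest. Among all tested genes the libraries did not overlap for 55.7% between the lines at 22 weeks, 51.2% between the ages and 59.2% between 4-week BPH/2J and BPN/3J. At 22 weeks it was 1.42-fold lower in BPH/2J than in BPN/3J, with -0.51 ± 0.08 on the log2 scale (SE, n = 3 per group, edgeR adjusted p = 0.000542). Within BPH/2J it rose 1.43-fold with age, by 0.52 ± 0.08 on the log2 scale (edgeR adjusted p = 0.00048). The 4-week BPH/2J libraries were 2.04-fold below BPN/3J (log2 difference -1.03 ± 0.08, edgeR adjusted p = 2.56e-06).

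Ptgs2 (ENSMUSG00000032487, chromosome 1) encodes the inducible cyclooxygenase. Its values were 32.0, 37.8 and 49.1 CPM in BPN/3J, 20.0, 25.4 and 23.2 CPM in 4-week BPH/2J and 52.5, 21.2 and 53.7 CPM in 22-week BPH/2J. Replicate 2 of 22-week BPH/2J lay within the range of the 4-week libraries, so the ages overlapped, whereas 4-week BPH/2J lay wholly below BPN/3J. The rise with age was 0.89 ± 0.29 on the log2 scale (edgeR adjusted p = 0.0327), and the 4-week level was below BPN/3J by -0.79 ± 0.30 (edgeR adjusted p = 0.0424). Between the lines at 22 weeks the log2 difference was 0.10 ± 0.29 and was not called (edgeR adjusted p = 0.806). Without replicate 2 of 22-week BPH/2J, the rise with age was 1.22 (edgeR adjusted p = 0.000441) and the difference between the lines 0.43 (edgeR adjusted p = 0.0683). Neither Ptgs2 call held in every setting: the rise with age had an adjusted p of 0.0797 with limma-voom and up to 0.12 with another library left out, and the lower 4-week level had 0.0591 with DESeq2 and up to 0.155.

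The endocardium, the inner lining of the heart chambers, was marked by 6 genes. Their summed level was 1094, 1033 and 1139 CPM in BPN/3J, 504, 587 and 470 CPM in 4-week BPH/2J and 1115, 734 and 1282 CPM in 22-week BPH/2J. In each group the library with the highest sum had the highest Ptgs2, and replicate 2 of 22-week BPH/2J was lowest for both. Of the 6 markers, Vwf, Bmp6 and Npr3 rose with age and were lower in 4-week BPH/2J than in BPN/3J. The shares of all tested genes were 19.9% and 25.3%. Hapln1 went the other way from these 3 and was higher in 4-week BPH/2J than in BPN/3J. Between the lines at 22 weeks, 1 of the 6 was lower in BPH/2J, against 18.2% of all tested genes. Vwf, a clotting factor also made by other endothelium, was the most abundant of the 6 markers. The part of endocardial cells in the Ptgs2 values was not tested. Per kilobase of gene length, the ratio of Ptgs1 to Ptgs2 was 3.32, 2.99 and 2.36 in the BPN/3J libraries, 2.79, 2.28 and 2.20 in 4-week BPH/2J and 1.53, 3.34 and 1.57 in 22-week BPH/2J. Ptgs1 was thus above Ptgs2 in all 9 libraries on this scale, by the least in replicates 1 and 3 of 22-week BPH/2J.

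**Figure D2:**
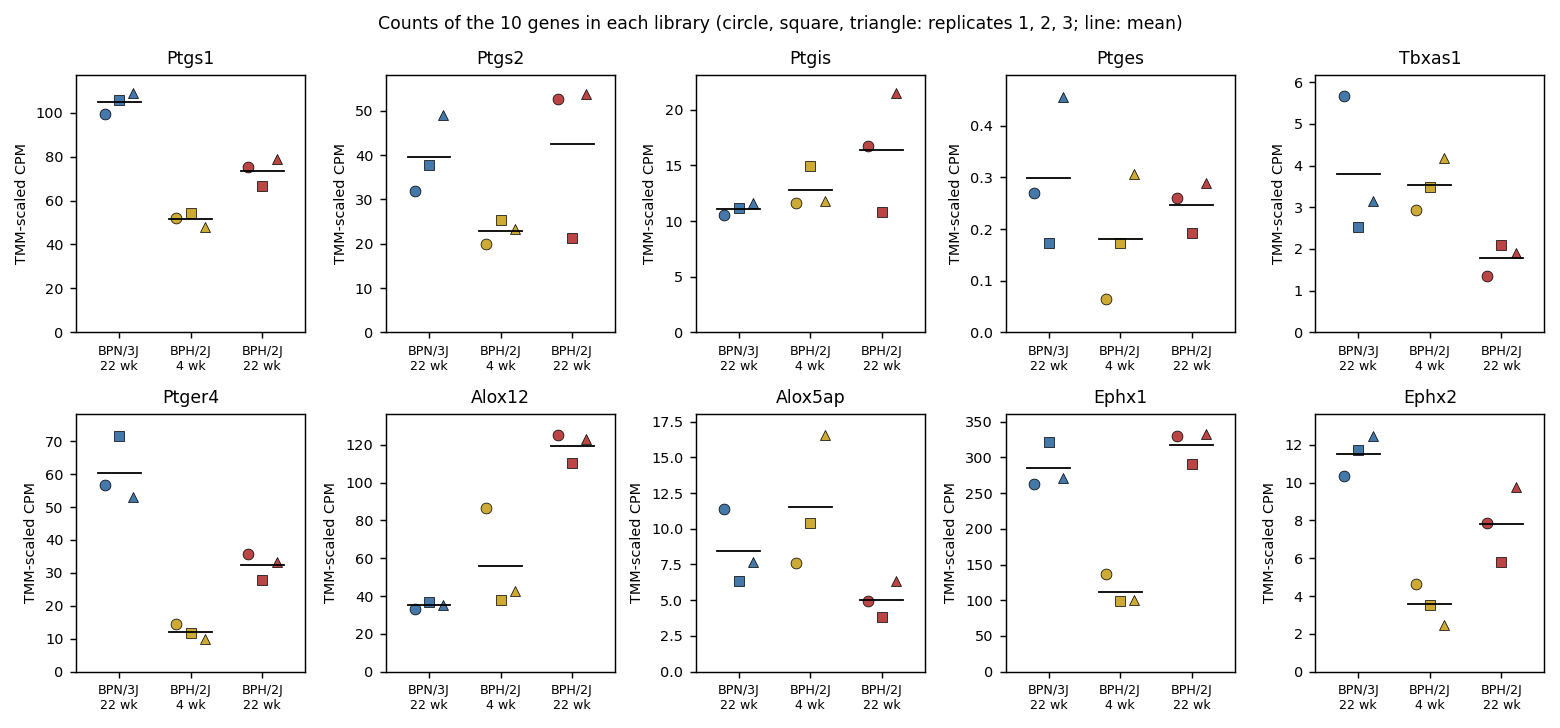
TMM-scaled CPM of the 10 genes in each of the 9 libraries (y axes, from 0, a scale of its own for each gene), with the 3 groups on the x axis and group means as lines. Ptgs1, Ptger4, Ephx2 and Alox12 show no overlap between any groups. Among all tested genes 51.2% to 59.2% show none in a single comparison, and the share with none in all 3 was not computed. The square of 22-week BPH/2J stands below its group for Ptgs2 (21.2 CPM) and Ptgis (10.8 CPM).

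Ptgis (ENSMUSG00000017969, chromosome 2) encodes prostacyclin synthase. It was at 10.5, 11.2 and 11.6 CPM in BPN/3J, 11.6, 15.0 and 11.8 CPM in 4-week BPH/2J and 16.7, 10.8 and 21.5 CPM in 22-week BPH/2J. Again replicate 2 of the last group was the low library, and its value lay among those of BPN/3J. No comparison called Ptgis: the log2 difference was 0.56 ± 0.21 between the lines at 22 weeks (edgeR adjusted p = 0.0563), 0.35 ± 0.21 between the ages (edgeR adjusted p = 0.193) and 0.20 ± 0.21 between 4-week BPH/2J and BPN/3J (edgeR adjusted p = 0.443). Without replicate 2 of 22-week BPH/2J the first difference was 0.79 (edgeR adjusted p = 0.00349) and the second 0.59 (edgeR adjusted p = 0.0116). DESeq2 called the difference between the lines with all libraries in (adjusted p = 0.0343). The 9 pericyte and smooth muscle markers, whose cells also make prostacyclin, summed to 1104 to 1261 CPM in BPN/3J, 1403 to 1758 CPM in 4-week BPH/2J and 1635, 1359 and 1479 CPM in 22-week BPH/2J, replicate 2 being lowest there too. Rgs5, a regulator of G protein signalling in pericytes, was the most abundant of these markers. The summed level of the B cell markers Cd79a, Cd79b and Ms4a1 had the same order of replicates as Ptgis in 22-week BPH/2J, at 40.2, 25.0 and 68.9 CPM, against 22.4 to 38.0 CPM in the libraries of the other groups, and no comparison called any of the 3. The order was not particular to B cells. Fibroblast markers (430, 372 and 463 CPM), neutrophil markers (10.4, 7.34 and 11.1 CPM) and endocardial markers (1115, 734 and 1282 CPM) had it too. The part of these cells in the Ptgis and Ptgs2 values was not tested.

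Tbxas1 (ENSMUSG00000029925, chromosome 6) encodes thromboxane synthase, which macrophages and platelets are known to express. It stood at 5.67, 2.54 and 3.16 CPM in BPN/3J, 2.94, 3.48 and 4.17 CPM in 4-week BPH/2J and 1.36, 2.09 and 1.90 CPM in 22-week BPH/2J. All 3 libraries of 22-week BPH/2J lay below the 6 others. Tbxas1 was lower there than in BPN/3J by a log2 difference of -1.09 ± 0.30 (edgeR adjusted p = 0.0169), and it fell with age by 0.98 ± 0.30 (edgeR adjusted p = 0.0244). Between 4-week BPH/2J and BPN/3J the log2 difference was -0.10 ± 0.29 (edgeR adjusted p = 0.787). Without BPN/3J replicate 1, where Tbxas1 was highest, the difference between the lines was -0.67 and was no longer called (edgeR adjusted p = 0.0603). It was also lost without replicate 1 of 22-week BPH/2J (edgeR adjusted p = 0.0649), and the fall with age was lost when any of 4 libraries was left out, with adjusted p up to 0.0936.

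The 17 macrophage and monocyte markers measured summed to 824, 498 and 556 CPM in BPN/3J, 527, 741 and 977 CPM in 4-week BPH/2J and 314 to 377 CPM in 22-week BPH/2J, so that the last group was below every other library. Of the 17, 11 were lower in 22-week BPH/2J than in BPN/3J and the other 6 were not called, against 18.2% lower among all tested genes. With age 12 fell and 2, Ptprc and Ly6c2, rose, against 21.1% lower and 19.9% higher among all. Lyz2, a lysozyme of myeloid cells, was the most abundant of the 17 markers. The library with the highest macrophage sum in BPN/3J, replicate 1, had the highest Tbxas1, and the same held for replicate 3 of 4-week BPH/2J. In 22-week BPH/2J it did not: replicate 3 had the highest macrophage sum, at 377 CPM, and replicate 2 the highest Tbxas1. The part of macrophages in the Tbxas1 values was not tested.

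Ptges (ENSMUSG00000050737, chromosome 2) encodes the inducible microsomal synthase of prostaglandin E2. It had 8, 5 and 13 counts in the BPN/3J libraries, 2, 5 and 10 in 4-week BPH/2J and 8, 6 and 9 in 22-week BPH/2J. These correspond to 0.30, 0.18 and 0.25 CPM on average, and the groups overlapped. In a fit with no filter on low counts the edgeR adjusted p was 0.731 between the lines at 22 weeks, 0.593 between the ages and 0.327 between 4-week BPH/2J and BPN/3J. A difference in Ptges was thus not detectable at this depth.

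Ptger4 (ENSMUSG00000039942, chromosome 15) encodes the EP4 receptor, which raises cyclic AMP when it binds prostaglandin E2. It was at 56.7, 71.5 and 53.0 CPM in BPN/3J, 14.4, 11.9 and 9.88 CPM in 4-week BPH/2J and 35.8, 27.8 and 33.3 CPM in 22-week BPH/2J. The groups did not overlap, and their order, with BPN/3J highest and 4-week BPH/2J lowest, was that of Ptgs1. In 4-week BPH/2J it was 5.02-fold below BPN/3J (log2 difference -2.33 ± 0.16, edgeR adjusted p = 1.39e-06), the largest difference of the 9 tested genes in any comparison. It rose 2.68-fold with age in BPH/2J, by 1.42 ± 0.16 on the log2 scale (edgeR adjusted p = 7.58e-05). At 22 weeks it was still 1.87-fold lower in BPH/2J than in BPN/3J (log2 difference -0.90 ± 0.15, edgeR adjusted p = 0.00094). All 3 calls held in each of 18 other fits, with other scalings, filters, tools or libraries left out. The gene Ttc33 overlaps exons of Ptger4 on the opposite strand, and without known strandedness reads of the overlap cannot be assigned.

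Alox12 (ENSMUSG00000000320, chromosome 11) encodes the platelet-type lipoxygenase, which makes a hydroxy fatty acid from arachidonic acid. It stood at 33.3, 36.9 and 35.0 CPM in BPN/3J, 86.7, 38.1 and 42.8 CPM in 4-week BPH/2J and 125.2, 110.3 and 122.8 CPM in 22-week BPH/2J. The 22-week BPH/2J libraries were above all others, and 4-week replicate 1 stood between the 2 others of its group and the older group. Alox12 was 3.41-fold higher in 22-week BPH/2J than in BPN/3J (log2 difference 1.77 ± 0.25, edgeR adjusted p = 0.000408), and it rose 2.14-fold with age (log2 difference 1.10 ± 0.24, edgeR adjusted p = 0.00508). Both calls held in each of the 18 other fits, and without replicate 1 of 4-week BPH/2J the rise with age was 1.56 (edgeR adjusted p = 1e-06).

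The difference between 4-week BPH/2J and BPN/3J in Alox12 was 0.67 ± 0.25 on the log2 scale (edgeR adjusted p = 0.0412). Without 4-week replicate 1 it was 0.21 (edgeR adjusted p = 0.0448), and without the 3 libraries that stood apart 0.16 (edgeR adjusted p = 0.0967). With all libraries its adjusted p was 0.0785 with DESeq2, 0.0758 with limma-voom and 0.0515 with the replicate number as a block. The 10 platelet markers summed to 42.9 to 46.2 CPM in BPN/3J, 105, 46.7 and 51.2 CPM in 4-week BPH/2J and 48.3 to 58.8 CPM in 22-week BPH/2J. In each group the library with the highest platelet sum also had the highest Alox12, by far in the 4-week group. Between 22-week BPH/2J and BPN/3J, 1 of the 10 markers was higher and 1 lower, against 19.8% and 18.2% of all tested genes. The marker that was higher was Clec1b, a surface receptor. It averaged 9.13 CPM in BPN/3J, 13 CPM in 4-week BPH/2J and 19.9 CPM in 22-week BPH/2J. The marker that was lower was Pf4, a chemokine of platelet granules, at 12.4, 20.6 and 7.87 CPM in the same order. Clec1b was the most abundant of the list on the mean of all 9 libraries, but Pf4 exceeded it in BPN/3J and 4-week BPH/2J. Clec1b thus had the group order of Alox12, and Pf4 was lowest where Alox12 was highest. The part of platelets in the Alox12 values was not tested.

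Alox5ap (ENSMUSG00000060063, chromosome 5) encodes the membrane protein that hands arachidonic acid to Alox5, the first enzyme of leukotriene synthesis, which is known mainly from leukocytes. It was at 11.4, 6.32 and 7.65 CPM in BPN/3J, 7.63, 10.4 and 16.5 CPM in 4-week BPH/2J and 4.96, 3.80 and 6.31 CPM in 22-week BPH/2J. The highest 22-week BPH/2J library lay just below the lowest BPN/3J library. Alox5ap fell with age by 1.20 ± 0.31 on the log2 scale (edgeR adjusted p = 0.0102). Between the lines at 22 weeks the log2 difference was -0.75 ± 0.31 and was not called (edgeR adjusted p = 0.0789), though DESeq2 called it (adjusted p = 0.0352). Without the 3 libraries that stood apart it was -0.31, the smallest of the 18 other fits, and 14 of the 18 likewise made no call. Between 4-week BPH/2J and BPN/3J the log2 difference was 0.45 ± 0.30 (edgeR adjusted p = 0.226), and 0.95 (edgeR adjusted p = 0.005) without the 3 libraries that stood apart. The fall with age was smaller, at -0.83 (edgeR adjusted p = 0.0447), without 4-week replicate 3. In each of the 3 groups the highest library was the one with the highest macrophage marker sum, and the part of macrophages in these values was not tested.

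**Figure D3:**
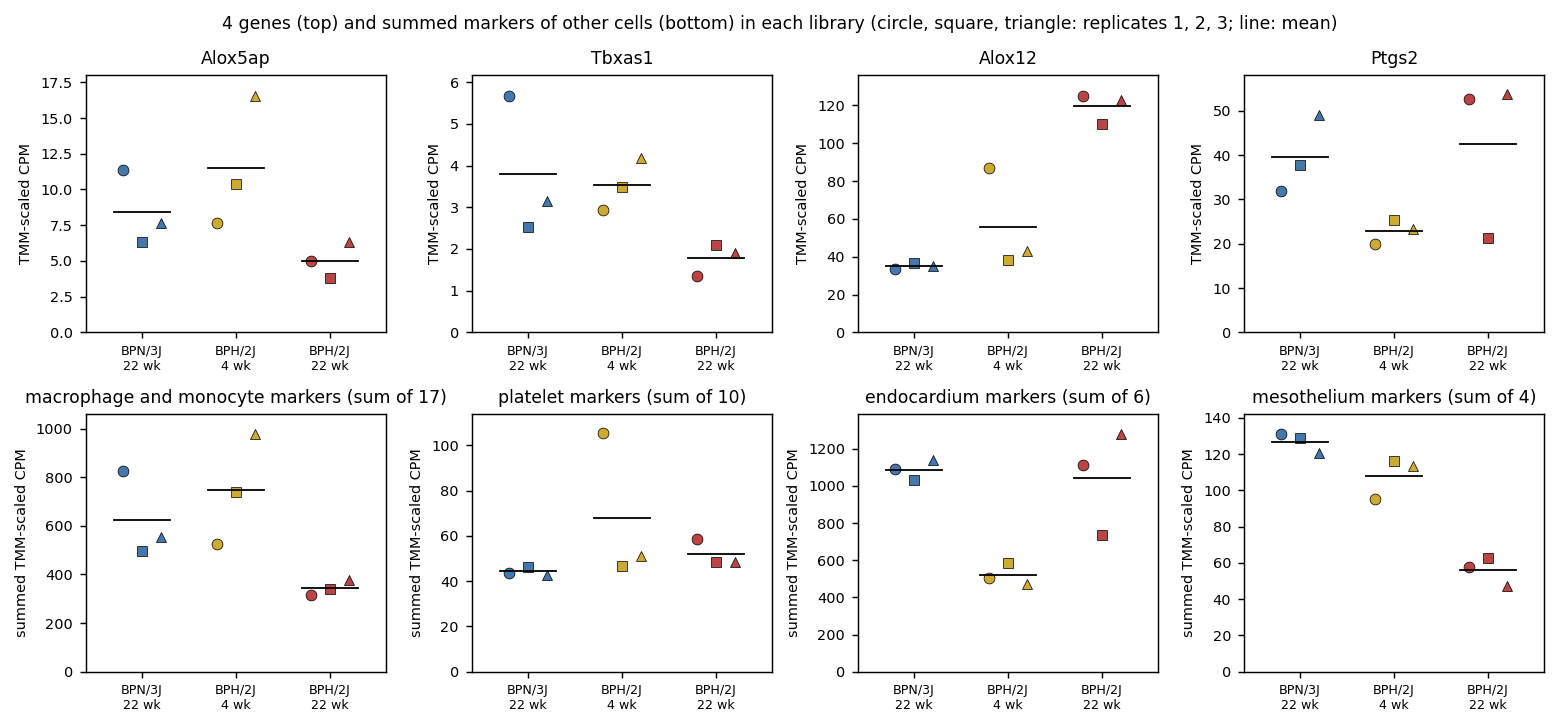
TMM-scaled CPM of Alox5ap, Tbxas1, Alox12 and Ptgs2 in each library (top) and the summed CPM of markers of macrophages, platelets, endocardium and mesothelium (bottom), with groups on the x axis and means as lines. The library highest in a group is the same in the upper and lower panels for Alox5ap with macrophages (4-week replicate 3 at 16.5 and 977 CPM), for Tbxas1 with macrophages except in 22-week BPH/2J, and for Alox12 with platelets (4-week replicate 1 at 86.7 and 105 CPM).

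Ephx1 (ENSMUSG00000038776, chromosome 1) encodes the microsomal epoxide hydrolase, known for detoxifying foreign epoxides and able to open lipid epoxides. It was at 262, 322 and 271 CPM in BPN/3J, 137, 98.8 and 101 CPM in 4-week BPH/2J and 330, 291 and 332 CPM in 22-week BPH/2J. The 22-week groups overlapped, and the 4-week libraries lay far below both. It rose 2.83-fold with age, by 1.50 ± 0.13 on the log2 scale (edgeR adjusted p = 2.52e-05), and 4-week BPH/2J was 2.54-fold below BPN/3J (log2 difference -1.35 ± 0.13, edgeR adjusted p = 1.31e-05). Between the lines at 22 weeks the log2 difference was 0.16 ± 0.13 (edgeR adjusted p = 0.354). The pseudogene Gm36961 overlaps an exon of Ephx1 on the same strand, so part of its reads is uncertain.

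Ephx2 (ENSMUSG00000022040, chromosome 14) encodes the soluble epoxide hydrolase, the main enzyme that inactivates epoxides of arachidonic acid. It stood at 10.3, 11.7 and 12.5 CPM in BPN/3J, 4.63, 3.55 and 2.49 CPM in 4-week BPH/2J and 7.88, 5.79 and 9.76 CPM in 22-week BPH/2J. The groups did not overlap, and the order was that of Ptgs1 and Ptger4. Ephx2 rose 2.20-fold with age (log2 difference 1.14 ± 0.23, edgeR adjusted p = 0.00332) and was 3.24-fold lower in 4-week BPH/2J than in BPN/3J (log2 difference -1.70 ± 0.23, edgeR adjusted p = 0.000148). The difference between the lines at 22 weeks, -0.56 ± 0.22, missed the threshold (edgeR adjusted p = 0.0659), while DESeq2 (adjusted p = 0.0365), limma-voom (adjusted p = 0.037) and a fit on these 2 groups alone (edgeR adjusted p = 0.0246) called it, as did the fit without the 3 libraries that stood apart (-0.46, edgeR adjusted p = 0.0487). Per kilobase, Ephx1 exceeded Ephx2 by 23.4 to 29.7 times in the BPN/3J libraries, 30.1 to 43.8 times in 4-week BPH/2J and 36.8 to 54.2 times in 22-week BPH/2J.

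The 11 cardiomyocyte markers summed to 868 to 1090 CPM in BPN/3J, 399 to 650 CPM in 4-week BPH/2J and 528 to 645 CPM in 22-week BPH/2J. Of these, 10 were lower in 4-week BPH/2J than in BPN/3J, 8 were lower in 22-week BPH/2J than in BPN/3J, and 1, Myh6, rose with age. The shares of all tested genes were 25.3%, 18.2% and 19.9% in the same order. Mb, myoglobin, was the most abundant of the 11 markers. Cardiomyocyte markers were thus lower in 4-week BPH/2J than in BPN/3J, as were Ephx1, Ephx2 and Ptger4, but for the most part were not called between the ages. The endocardial sum given above was, like Ephx1, low at 4 weeks and overlapped between the 22-week groups. The part of cardiomyocytes and endocardium in the Ephx1, Ephx2 and Ptger4 values was not tested.

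The other marker lists are given as ranges in the order BPN/3J, 4-week BPH/2J and 22-week BPH/2J, each with its most abundant gene. The 9 fibroblast markers (Dcn) summed to 515 to 572, 368 to 598 and 372 to 463 CPM, and the 6 mast cell markers (Kit) to 68.7 to 81.8, 122 to 165 and 86.2 to 104 CPM. The 4 mesothelial markers (Wt1) summed to 120 to 131, 95.2 to 116 and 47.2 to 62.7 CPM. The 5 neutrophil markers (Retnlg) reached 8.98 to 12.9, 3.46 to 4.10 and 7.34 to 11.1 CPM. The 5 markers of T and natural killer cells, Cd3d, Cd3e, Cd3g, Cd8a and Nkg7, summed to 6.14 to 7.85, 4.64 to 6.39 and 10.9 to 13.8 CPM. All 5 rose with age in BPH/2J, against 19.9% of all tested genes. Mast cell markers were thus highest and neutrophil markers lowest at 4 weeks, and mesothelial markers lowest in 22-week BPH/2J.

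Compared as RPKM (TMM-scaled CPM per kilobase of deposited gene length), Ephx1 had the highest level of the 10 genes in every group, at 142 RPKM in BPN/3J, 56.0 RPKM in 4-week BPH/2J and 158 RPKM in 22-week BPH/2J. In BPN/3J it was followed by Ptgs1 at 27.0 RPKM and then by Alox5ap, Ptgs2, Ptger4 and Alox12 at 8.80 to 9.57 RPKM, whose libraries overlapped from each gene to the next. Ephx2 at 5.31 and Ptgis at 4.33 RPKM came below these. In 4-week BPH/2J it was followed by Alox12 at 14.0 RPKM, Ptgs1 at 13.2 RPKM and Alox5ap, with libraries from 8.65 to 18.7 RPKM, and these did not differ beyond the spread of their libraries. Ptgs2 at 5.52 and Ptgis at 4.99 RPKM followed and overlapped, as did Ptger4 at 1.81 and Ephx2 at 1.64 RPKM. In 22-week BPH/2J Alox12 came next at 30.0 RPKM and then Ptgs1 at 18.9 RPKM, without overlap between them. There Ptgs2, Ptgis, Alox5ap, Ptger4 and Ephx2, from 10.3 down to 3.60 RPKM, each overlapped the next. Tbxas1, at 0.196 to 0.417 RPKM, and Ptges, at 0.0462 to 0.0763 RPKM, had the lowest group means throughout.

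**Figure D4:**
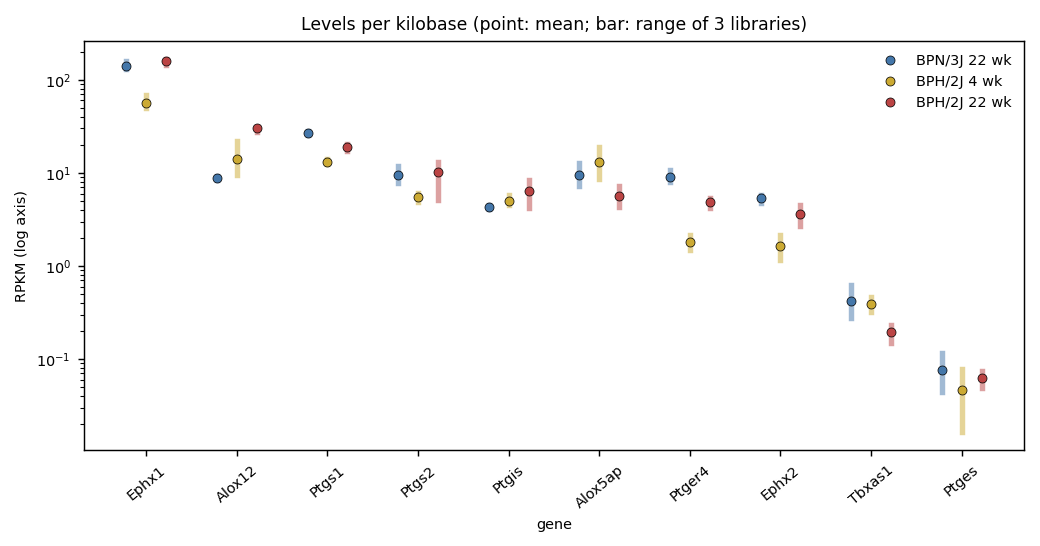
Mean level per kilobase of gene length of the 10 genes in the 3 groups (y axis, RPKM, log axis), with bars for the range of the 3 libraries. Ephx1 is highest in each group, and Alox12 passes from 8.80 RPKM in BPN/3J to 30.0 RPKM in 22-week BPH/2J.

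The rest of the eicosanoid pathway was read from a list of 65 textbook genes, of which 47 were in the table and 40 were tested. In 22-week BPH/2J against BPN/3J, 7 of the 40 were higher and 7 lower, with a median log2 difference of 0.15, against 38.0% called in either direction among all tested genes. With age in BPH/2J, 19 rose and 8 fell (median 0.40), against 41.0%. In 4-week BPH/2J against BPN/3J 8 were higher and 12 lower (median -0.23), against 53.1%. The counts in the first and last of these comparisons are near the background share. Members of this list that are named below without values were chosen after their values were seen, to spell out small counts.

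Cytochrome P450 epoxygenases and hydroxylases rose with age in 6 of 7 cases (median log2 difference 1.08), against 19.9% of all tested genes. Of the 7, 5 (Cyp2j9, Cyp2u1, Cyp4f13, Cyp4f16 and Cyp4f18) were lower in 4-week BPH/2J than in BPN/3J (median -0.84), against 25.3% of all. Cyp2u1 rests on 4 to 32 counts per library, and the Cyp2c and Cyp4a genes of the list were not among the genes measured. Cyp4f13, of a family that hydroxylates fatty acids and leukotrienes, was at 21.1 ± 0.286 CPM in BPN/3J, 9.45 ± 1.68 CPM in 4-week BPH/2J and 21.2 ± 1.25 CPM in 22-week BPH/2J (SD, n = 3 per group). Cyp2j9 averaged 17.1, 9.52 and 20.0 CPM in the same order and rose with age by 1.08 ± 0.16 (edgeR adjusted p = 0.000571). These genes share with Ephx1 and Ephx2 a low level at 4 weeks. Cyp2j6 averaged 33.7, 31.8 and 45.5 CPM and was higher in 22-week BPH/2J than in BPN/3J, by 0.43 ± 0.10 (edgeR adjusted p = 0.00543), and than at 4 weeks, by 0.52 ± 0.10 (edgeR adjusted p = 0.00177).

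Among the 4 tested prostanoid receptors other than Ptger4, 1, Tbxa2r, was higher and 2, Ptger1 and Ptgfr, were lower in 22-week BPH/2J than in BPN/3J. The shares of all tested genes were 19.8% higher and 18.2% lower. Tbxa2r, the thromboxane receptor, was at 19.2, 18.6 and 18.0 CPM in BPN/3J, 46.9, 39.5 and 33.4 CPM in 4-week BPH/2J and 51.1, 43.9 and 42.3 CPM in 22-week BPH/2J. Both ages of BPH/2J lay above BPN/3J, by log2 differences of 1.30 ± 0.12 (edgeR adjusted p = 2.38e-05) at 22 weeks and 1.10 ± 0.12 (edgeR adjusted p = 2.96e-05) at 4 weeks, and the ages did not differ past the threshold (0.20 ± 0.11, edgeR adjusted p = 0.197), except without 4-week replicate 1 (0.33, edgeR adjusted p = 0.0153). In 22-week BPH/2J, the thromboxane receptor gene thus stood higher than in BPN/3J and the thromboxane synthase gene Tbxas1 stood lower than in BPN/3J. Ptgir, the prostacyclin receptor, averaged 2.18 CPM in BPN/3J, 1.79 CPM in 4-week BPH/2J and 2.82 CPM in 22-week BPH/2J and rose with age by 0.66 ± 0.20 (edgeR adjusted p = 0.0255), which was lost in 3 of the fits with a library left out (adjusted p up to 0.104).

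Of the 7 other prostanoid synthases, 1, Cbr1, was higher and 2, Ptges3 and Ptgds, were lower in 22-week BPH/2J than in BPN/3J. The background was 19.8% higher and 18.2% lower among all tested genes. Ptges3, a co-chaperone that also has prostaglandin E synthase activity, stood at 162 ± 29.7 CPM in BPN/3J, 129 ± 27.7 CPM in 4-week BPH/2J and 82.2 ± 2.70 CPM in 22-week BPH/2J, where it was lower than in BPN/3J by -0.98 ± 0.16 (edgeR adjusted p = 0.000976). Ptgds, a prostaglandin D synthase, averaged 6.09, 1.40 and 3.02 CPM in the same order, and all 3 comparisons called it, with log2 differences of -1.01 between the lines, 1.11 between the ages and -2.12 between 4-week BPH/2J and BPN/3J. Its group order was that of Ptgs1, Ptger4 and Ephx2.

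Of the 5 genes of prostanoid transport and breakdown, Slco2a1, Abcc4 and Ptgr2 were higher in 22-week BPH/2J than in BPN/3J and rose with age, while Hpgd and Ptgr1 fell with age. Among all tested genes, 19.8% were higher between the lines, and 19.9% rose and 21.1% fell with age. Slco2a1, the prostaglandin transporter, averaged 17.4 CPM in BPN/3J, 17.8 CPM in 4-week BPH/2J and 25.2 CPM in 22-week BPH/2J, where it was higher than in BPN/3J by 0.53 ± 0.15 (edgeR adjusted p = 0.0202), a call lost, like its rise with age, in 3 of the fits with a library left out (adjusted p up to 0.082). Hpgd, which oxidises prostaglandins to inactive forms, averaged 5.91, 11.9 and 6.83 CPM and was highest at 4 weeks, falling with age by 0.80 ± 0.19 (edgeR adjusted p = 0.00674). Ptgr1, a reductase of the next step, had the same order at 4.53, 8.60 and 5.63 CPM.

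In the leukotriene branch, Alox5 averaged 3.35 CPM in BPN/3J, 5.99 CPM in 4-week BPH/2J and 2.64 CPM in 22-week BPH/2J. It fell with age by 1.18 ± 0.24 on the log2 scale (edgeR adjusted p = 0.00283), beside the fall of 1.20 in Alox5ap, and its highest library was likewise 4-week replicate 3, at 8.41 CPM. Lta4h, which makes leukotriene B4, fell by 0.37 ± 0.06 (edgeR adjusted p = 0.000752) from 93.6 to 72.6 CPM. Of the 5 tested lipoxygenases and leukotriene enzymes, 3 fell with age and 1, Alox15, rose. The shares of all tested genes were 21.1% and 19.9%. Between the lines at 22 weeks the 5 tested genes of this class had adjusted p of 0.113 to 0.908. Of the 10 phospholipases and related lipases that free arachidonic acid, Pla2g6, Pla2g2d and Pla2g7 were lower in 22-week BPH/2J than in BPN/3J. The share of all tested genes was 18.2%. The cytosolic phospholipase Pla2g4a was at 6.92, 7.30 and 6.88 CPM in BPN/3J, 6.04, 5.52 and 5.40 CPM in 4-week BPH/2J and 8.40, 4.86 and 9.96 CPM in 22-week BPH/2J, with replicate 2 again lowest, and no comparison called it. Without that library it was higher in 22-week BPH/2J than in BPN/3J by 0.39 (edgeR adjusted p = 0.0419) and rose with age by 0.70 (edgeR adjusted p = 0.00248). Cysltr1 and Ltb4r1, the 2 leukotriene receptors tested, both rose with age, against 19.9% of all tested genes. Cysltr1 was also higher in 22-week BPH/2J than in BPN/3J, against 19.8% of all.

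**Figure D5:**
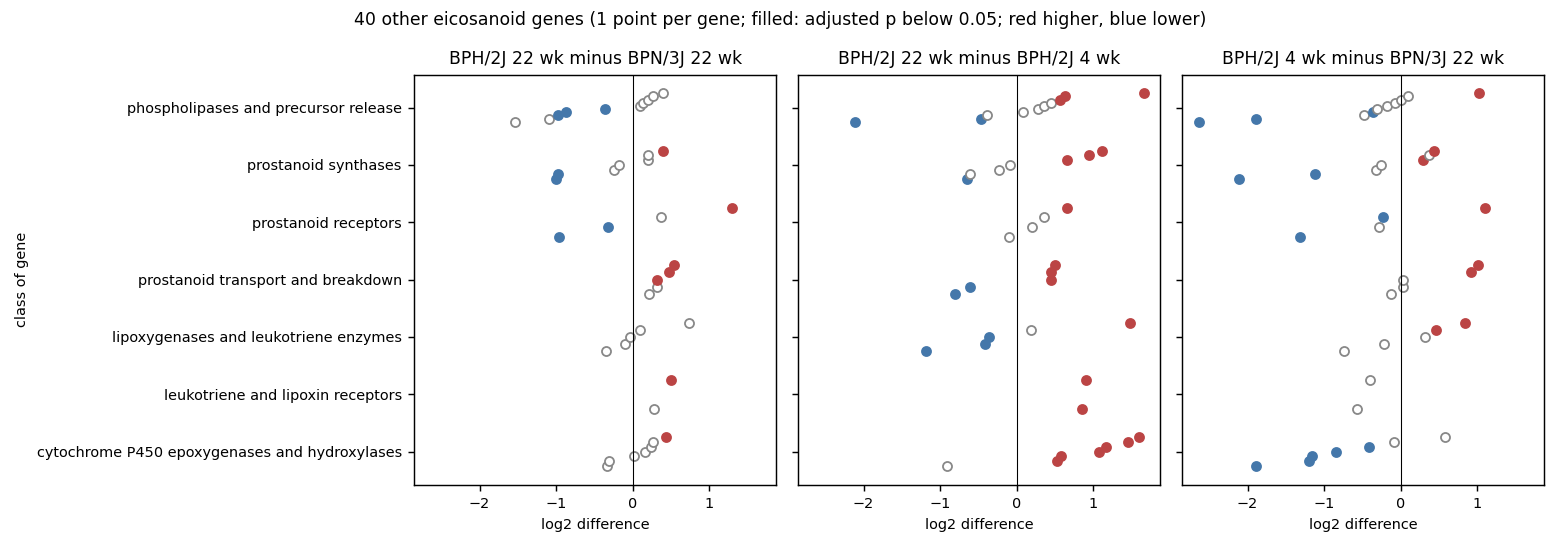
Log2 differences of the 40 other tested eicosanoid genes by class (1 point per gene; x axis, log2 scale) in the 3 comparisons, filled where the adjusted p was below 0.05. The cytochrome P450 class shows 6 of 7 filled red points between the ages, against 19.9% higher among all tested genes. It shows 5 of 7 filled blue points for 4-week BPH/2J against BPN/3J, against 25.3% lower among all.

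The 8 genes called in at least 1 comparison were also set beside every other tested gene with a mean of at least 5 CPM, by the correlation of log2 CPM over the 9 libraries. All points share the 3 groups, so high values mainly repeat the group pattern. The most alike were Itgb5 (Pearson r = 0.998) and Ism1 (0.995) for Ptger4, Synm (0.997) and Rasgrf2 (0.996) for Ephx1, Tcf23 (0.994) and Fam217b (0.993) for Ptgs1, and Tmem209 and Mapk3 (0.992 each) for Alox12. Myo10 (0.986) and Me1 (0.979) were most like Ephx2, and Enpp6 (0.935) and Fam174b (0.931) most like Ptgs2. For Tbxas1 the nearest were Cd40 (0.978) and P2ry6 (0.959), and for Alox5ap they were Ctsc (0.986) and Arrb2 (0.972).

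The authors' deposited table gives calls for the same comparisons. At a false discovery rate of 0.05 the authors' deposited table has 2 of the 10 genes higher and 5 lower in 22-week BPH/2J than in BPN/3J, where the 3 additional calls are Ptgis, Alox5ap and Ephx2. As BPN/3J minus BPH/2J, the log2 fold changes of these genes in the authors' deposited table are -0.57, 0.737 and 0.545, with false discovery rates of 0.0148, 0.0271 and 0.0355. For the ages and for 4-week BPH/2J against BPN/3J, the authors' deposited table made the same call for all 10 genes. The share of all genes called in the authors' deposited table is not given here, so these counts only describe the 10 genes.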

How the data were processed

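Poly(A) RNA of 9 libraries was read on an Illumina instrument, per the labels' protocols. Genome build mm9, Bowtie2 and TopHat2 2.0.13, CASAVA 1.8.2, edgeR, FastQC and featureCounts (Subread) appear in the submitters' processing notes. For strandedness and the annotation release, nothing is given in the sources used here. The authors deposited raw counts per gene. They also deposited log2 fold changes, p-values (p_value) and false discovery rates of their own comparisons, per the file headers. The deposited CPM columns were not used, and the deposited gene lengths gave RPKM.

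Here, genes were kept by filterByExpr (15277 of 18094), scaled by TMM and fitted on group in all 9 libraries with edgeR 4.0.16 (glmQLFit, glmQLFTest, two-sided). P-values were adjusted by Benjamini-Hochberg over all tested genes. SE is the log2 difference over the square root of F. The test was checked on simulated data. Alternatives were other scalings and filters, DESeq2 1.42.0, limma-voom (limma 3.58.1), fits on the groups compared, a replicate block, a threshold of 0.01 and each library left out. Leaving out the 3 libraries that stood apart was chosen after seeing the data. R 4.3.3, Python 3.11.15 and matplotlib 3.10.9 were used.

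The 10 genes and all lists were chosen with earlier results of these data known. From the pathway list, 7 partners of the genes were named whatever their result, with, per comparison and direction, the 2 called genes of smallest adjusted p and at least 1 CPM. The lymphocyte list was split after seeing the data, and a part of it is not reported here. Overlapping genes were read from GENCODE M21: besides those in the report, Gm15937 (Ptger4), Gm19719 (Alox5ap), 1110018N20Rik (Ptgis), Gm43621 (Ptgs1) and Gm42962 (Tbxas1) lie on the opposite strand. Counts carry no molecular identifiers, so the 3-count floor (95% limit of a count of 0) covers counting error only.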

Additional observations from a re-analysis of the deposited data

How the results depend on the processing

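The replicate numbers did not pair the libraries: residuals of same-numbered libraries correlated at -0.152 to 0.0659. A fit with the replicate block called 5261 genes between the lines, 5758 between the ages and 7723 between 4-week BPH/2J and BPN/3J, and among the 10 genes only the call of Alox12 in the last comparison was lost (log2 difference 0.60). Between the lines at 22 weeks, 2 of the genes were called higher without the low-count filter, with DESeq2 and without the 3 libraries that stood apart, and 5 were called lower with DESeq2 and with only the groups compared. Leaving out 1 library gave 1 to 2 higher and 2 to 5 lower. Between the ages, 1 to 2 were lower with a library left out. In 4-week BPH/2J against BPN/3J, 0 were higher with DESeq2, limma-voom, only the groups compared, the replicate block and a threshold of 0.01, where Alox12 had adjusted p of 0.0412 to 0.103, and 0 to 1 with a library left out. At 0.01, 3432 genes were called between the lines and 3871 between the ages, where 0 of the genes were lower (Alox5ap and Tbxas1 at adjusted p of 0.0102 and 0.0244). The pathway list then had 3 higher and 1 lower between the lines, 11 higher between the ages, and 5 higher in 4-week BPH/2J against BPN/3J. With a library left out the pathway list had 3 to 10 higher and 3 to 9 lower between the lines. Differences that were not called changed sign when a library was left out: between the lines, Ptgs2 ranged from -0.10 to 0.43, Pla2g4a from -0.080 to 0.39 and Cyp4f13 from -0.024 to 0.059, and in 4-week BPH/2J against BPN/3J, Tbxas1 from -0.32 to 0.31, Slco2a1 from -0.14 to 0.18 and Cyp2j6 from -0.21 to 0.0047. Without the 3 libraries that stood apart, Tbxas1 was 0.42 and Slco2a1 -0.23 in that comparison. The causes were not tested. Depth limits Ptges, at 2 to 13 counts per library.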
